A study of Homo sapiens with 2 samples.

Results

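Cas9 carrying a FLAG tag was crosslinked to RNA in H1-iCas9 cells. This Cas9-inducible line derives from H1, an established line of human embryonic stem cells. Some of the crosslink sites reported for Cas9 lay in 3 dense single-strand runs seen in replicate 2. The runs touch 6 protein-coding genes: PLCB1, MAPK10, CROT and ABCB4, which held most of the sites, and PLCB4 and ARHGAP24, which held 1 and 2 sites of a run. Replicate 1 had 0 such runs. All regions of both libraries that overlapped the RefSeq span of one of these genes were taken, on either strand. There were 7 such regions of 4204 in replicate 1 and 40 of 5995 in replicate 2, or 42 distinct regions of 7756 over both. Every one of the 7 and of the 40 was a single base, so they are called sites. The genes were chosen by measured values, namely at least 10 sites on one strand within 500 kb in replicate 2. The number, the common strand and the closeness of the replicate 2 sites are therefore a description and not a finding. The strand of the gene, the score and the replicate 1 sites were not used in that choice. Which part of a gene the sites lie in was not used either, but their crowding within 500 kb was.

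Both libraries came from 1 group, with 1 µg/ml doxycycline for 24 hours to induce Cas9, ultraviolet light of 254 nm at 300 mJ/cm2 to join protein and RNA, and an anti-FLAG immunoprecipitation. The labels name neither a guide RNA nor separate cultures, so the difference between libraries may be technical. Each region carries a score given by the authors, whose scale is not stated in the sources used here. Its median was 21.4 in replicate 1 and 21.3 in replicate 2, and single sites reached 708.396 at most in both. No control library and no RNA abundance were analysed here. A site is thus a crosslink reported on RNA of a strand and was not tested against background. It does not show how much RNA was present. How many reads stand behind a site is unknown, so no depth can be given.

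The genes form 3 neighbouring pairs. PLCB1 and PLCB4 encode phospholipase C beta enzymes, which cleave a membrane phosphoinositide into second messengers when receptors signal through Gq proteins. ARHGAP24 encodes a GTPase-activating protein, and MAPK10 encodes a c-Jun N-terminal kinase found mainly in neurons. CROT encodes a peroxisomal enzyme that moves medium-chain acyl groups to carnitine, and ABCB4 encodes the transporter that delivers phosphatidylcholine to bile. Crosslinking assays read the strand of the RNA, so a site can lie on the strand that makes the gene's own transcript or on the opposite one. Long introns make up most of the span of genes such as PLCB1 and MAPK10. Exon positions were not used here, so sites are placed by their distance from the ends of the gene.

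Promoter sequences are shown for some listed starts of member genes. These are the CROT start, which lies inside a run, and the MAPK10 start closest to one. PLCB1, PLCB4 and ABCB4 have no listed start. With strands from general knowledge, the spans of PLCB4 and ABCB4 also start inside a run. Other genes in the runs were left out. Whether starts bear on where the runs lie was not tested. The sequences are the 250 bases before the start, from RefSeq on GRCh38.p14, written 5′ to 3′ on the strand of the gene. Capitals mark a GC box (GGGCGG) or a CCAAT box (CCAAT) on either strand. TATAAA and TGACGTCA were also searched.
CROT, chr7:87345414-87345663, plus strand: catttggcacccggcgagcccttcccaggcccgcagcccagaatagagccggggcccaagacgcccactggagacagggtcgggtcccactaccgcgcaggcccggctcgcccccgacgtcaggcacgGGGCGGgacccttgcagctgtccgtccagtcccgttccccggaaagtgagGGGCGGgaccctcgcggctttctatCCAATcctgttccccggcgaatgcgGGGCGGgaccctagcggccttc
MAPK10, chr4:86354645-86354894, minus strand: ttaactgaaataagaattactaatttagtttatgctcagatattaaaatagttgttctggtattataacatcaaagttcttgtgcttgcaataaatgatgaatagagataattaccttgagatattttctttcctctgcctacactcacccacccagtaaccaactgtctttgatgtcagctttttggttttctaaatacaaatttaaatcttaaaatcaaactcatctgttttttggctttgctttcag

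The CROT start lies within its run, with the nearest site 4.84 kb away. The MAPK10 start lies 30.2 kb beyond the last site of its run, so that run ended before it reached a listed start of the gene. The 2 windows differ in composition. The CROT window is 70.8% G and C and holds 3 GC boxes and 1 CCAAT box, and the MAPK10 window is 30.0% G and C and holds none of the motifs searched. Over 35116 windows of the table, 42.6% hold a GC box, 32.0% a CCAAT box, 10.7% TATAAA and 1.65% TGACGTCA, and the median content of G and C is 58.0%. No site of either library fell in a listed promoter window of CROT (1 window), MAPK10 (3) or ARHGAP24 (2). Of all regions, 24 in replicate 1 and 94 in replicate 2 fell in such windows.

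The direction of the sites is given first by gene and then by run. In PLCB1, MAPK10 and ABCB4 all 32 of 32 replicate 2 sites lay on the strand opposite to the gene. In CROT, which runs the other way and overlaps the end of ABCB4 with its own end, all 5 lay on the strand of the gene. Of these 5, 3 are also counted among the ABCB4 sites. The strands of ARHGAP24 (plus), MAPK10 (minus) and CROT (plus) are those of the RefSeq promoter table. PLCB1, PLCB4 and ABCB4 have no entry there, and their strands (plus, plus and minus) were taken from general knowledge of the genes. Sites of one run share their strand by the way they were chosen, so each run counts once and not once per site. Counted so, the PLCB1 run lay against PLCB1 and, by 1 site only, against PLCB4. The MAPK10 run lay against MAPK10 and with ARHGAP24, and the ABCB4 run against ABCB4 and with CROT.

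Over ARHGAP24, MAPK10 and CROT, 7 of 21 replicate 2 sites were on the gene's strand (33.3%), and 1 of 4 replicate 1 sites (25%). All but 2 of the 21 belong to the MAPK10 and ABCB4 runs, whose common strand was part of the choice, so the replicate 2 share is a description of a pair of runs and carries no interval. With the general-knowledge strands added, 8 of 43 gene-site pairs were on the gene's strand in replicate 2 (18.6%) and 2 of 8 in replicate 1 (25%). Sites in both CROT and ABCB4 enter that count once for each gene. Over all protein-coding genes of the promoter table, 46.0% of regions that lay in a single such gene were on its strand in replicate 1 (750 of 1631) and 46.0% in replicate 2 (1087 of 2365). The members' shares were not tested against these.

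**Figure D1:**
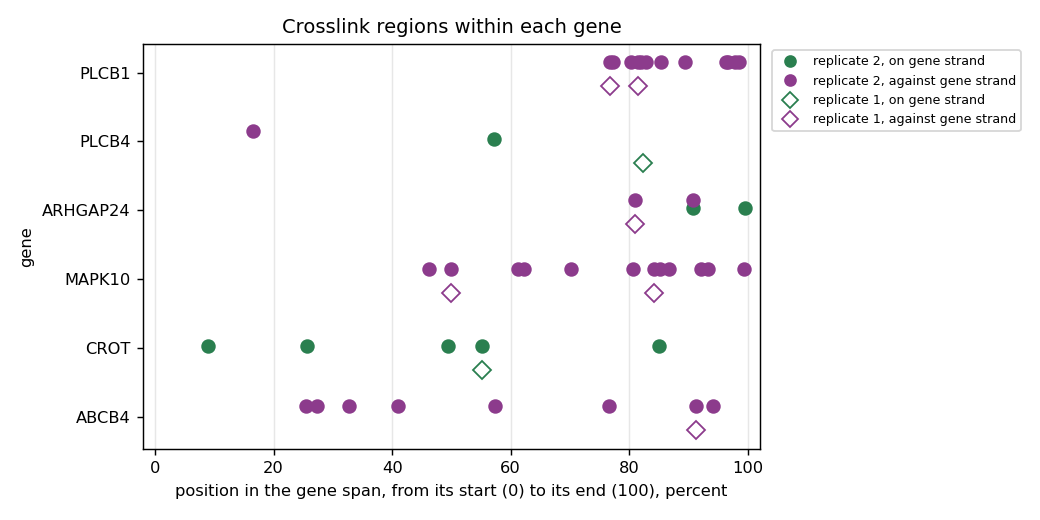
Position of each site within the span of its gene, as percent of the span from the gene's start (0) to its end (100), for the 6 genes on separate rows. Filled circles are replicate 2 sites and open diamonds replicate 1 sites, green on the gene's strand and purple against it. The sites of PLCB1 crowd into the last part of the gene, from 76.8% to 98.6%, and all are purple. Crowding within 500 kb was part of the choice.

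Against the direction of transcription of PLCB1, MAPK10 and ABCB4, each run came in past the annotated end of the gene and stopped inside the gene or beyond its start. In PLCB1 the replicate 2 sites occupied 76.8% to 98.6% of the span counted from the gene's start, and in MAPK10 46.2% to 99.4%. The ABCB4 sites were spread more widely, from 25.5% to 94.1%. PLCB1 and MAPK10 are longer than the 500 kb of the rule and ABCB4 is shorter. Crowding into a part of PLCB1 and MAPK10 is thus partly built into the choice. The other member of each pair lay upstream along the run and held part of it. The run through PLCB1 started in PLCB4, the run through MAPK10 started in ARHGAP24, and the run through ABCB4 passed through CROT. The PLCB4 part was 1 site seen in replicate 2 alone. It lay 194.2 kb from the next site, where the median gap of that run was 9.89 kb, and left the run with a 250 kb window.

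PLCB1 spans 752.6 kb of chromosome 20 (hg38, 8132266 to 8884900). It held 12 sites in replicate 2, all on the minus strand, and 2 in replicate 1, both also on the minus strand. The highest score was 708.396, the ceiling, at 8710541 in both libraries. The site at 8744988 was also found in both, with scores of 16.1 in replicate 1 and 26.2 in replicate 2. The other 10 sites were seen in replicate 2 alone. They scored from 0.371 at 8749078, the lowest of all member sites, to 53.3 at 8713833, which lies next to the ceiling site. The median score of the gene's 12 sites was 16.6, below the library median. Neighbouring sites lay 2.13 to 52.9 kb apart, with a median of 8.43 kb.

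A group of 4 sites lay close to the end of PLCB1, at 8857637, 8859769, 8868200 and 8874110, with scores of 15.3, 32.5, 16.2 and 9.64. The run continued upstream into the 183.8 kb between PLCB1 and PLCB4 with 4 sites that lie in no annotated gene, at 8885317, 8918691, 8925276 and 8942287. Of these, 8925276 was found in both libraries, with scores of 41.6 in replicate 1 and 153.0 in replicate 2. It was the second highest score of the run. LOC105372522, a long noncoding RNA gene listed on the plus strand, and RNU105B, a small nucleolar RNA gene, lie within the run and held 0 sites of it.

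PLCB4 spans 412.1 kb (9068678 to 9480808) and differed from its partner. It held 2 sites in replicate 2, 1 on each strand. The minus-strand site at 9136516, with a score of 12.5, was the upstream end of the run and lay 194.2 kb from the next site in it. The plus-strand site at 9304383 scored 18.05 and was outside the run. Replicate 1 had 1 site, on the plus strand at 9408020, with a score of 26.2. None of the 3 PLCB4 sites recurred, and the plus-strand sites of the libraries were at different positions.

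**Figure D2:**
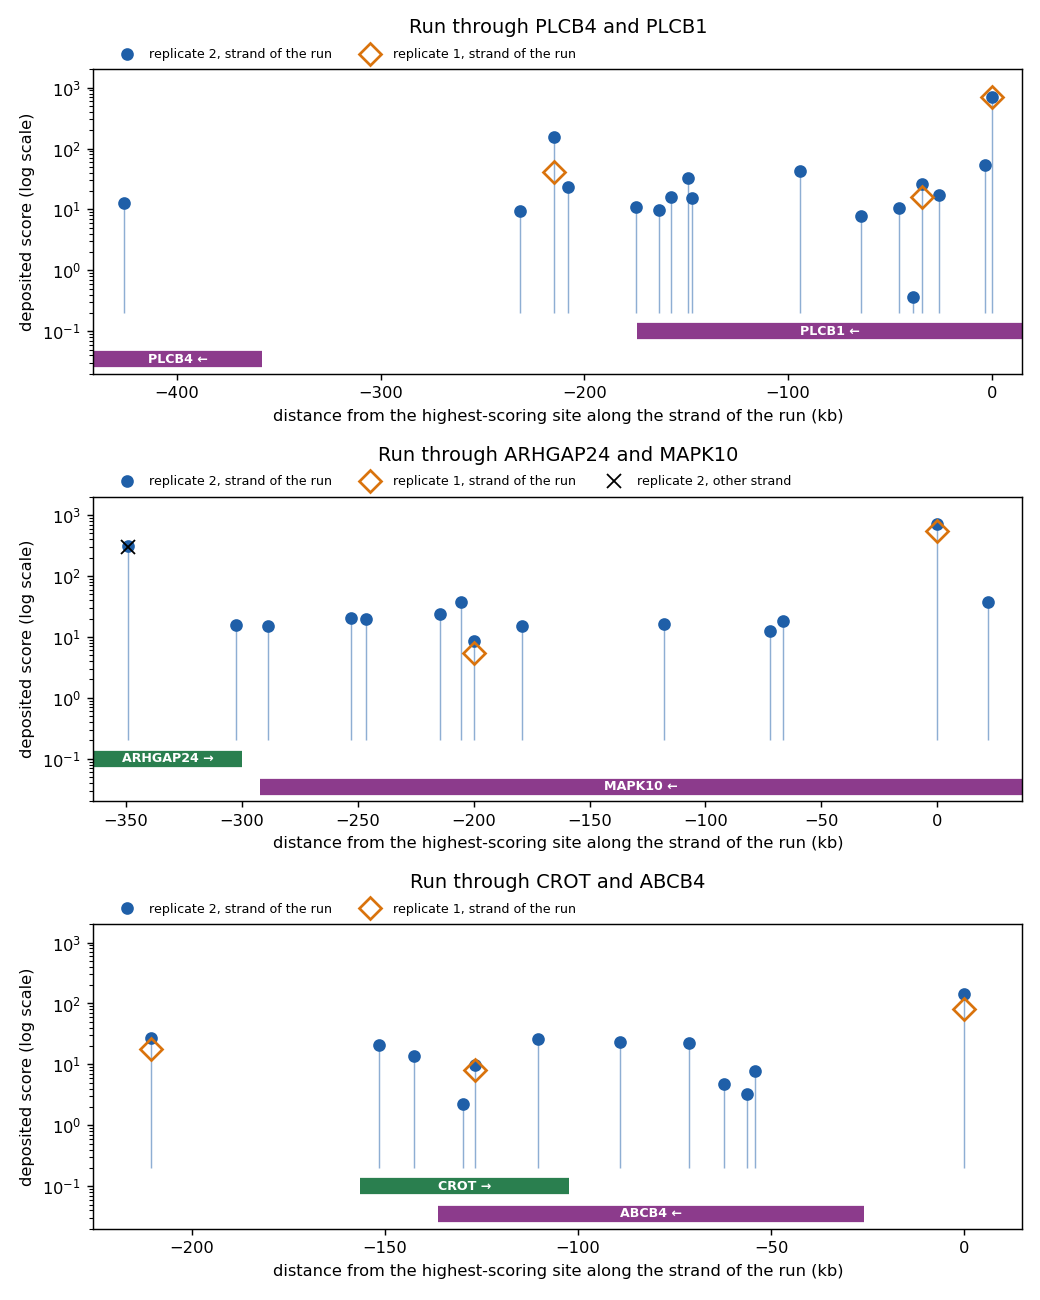
Deposited score (log scale) of each site against its distance in kb from the highest-scoring site of its run, measured along the strand of the run, so that sites to the left lie upstream. Blue circles are replicate 2, open orange diamonds replicate 1, the black cross a site on the other strand, and bars the gene spans, green where the gene runs with the sites and purple where it runs against them. The highest site stands at or near the downstream end in each panel, and replicate 1 has 3, 2 and 3 sites on the strand of the runs.

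ARHGAP24 spans 527.5 kb of chromosome 4 (85475150 to 86002666) and was the one member with sites on both strands close together. In replicate 2 a plus-strand site at 85953602 scored 305.3 and a minus-strand site at 85953626, only 24 bases away, scored 301.0. Neither was found in replicate 1. This was the only pair of opposite-strand member sites within 100 bases in either library. The minus-strand site at 85902628 was found in both libraries, with scores of 29.2 in replicate 1 and 121.9 in replicate 2. The last site, on the plus strand at 86000030, scored 15.9 and lay 2.64 kb before the end of the gene. All 4 replicate 2 sites were in the final part of the gene, from 81.0% of the span onwards.

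MAPK10 begins 7.74 kb beyond the end of ARHGAP24, with the opposite orientation, and spans 583.7 kb (86010405 to 86594074). It held 12 plus-strand sites in replicate 2 and 2 in replicate 1, and no site on its own strand in either library. The site at 86302643 scored 543.1 in replicate 1 and 708.396 in replicate 2, and it lies at 49.9% of the span. The other recurrent site, at 86103000, scored 5.48 and 8.54, so recurrence here was not limited to high scores. The remaining 10 sites scored between 12.5 at 86230325 and 37.4 at 86324421. Neighbouring sites lay 5.73 to 66.4 kb apart, with a median of 21.8 kb, wider than in PLCB1.

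The site at 86324421 was the only one downstream of the highest site in any of the 3 runs, and it closed the run. MAPK10-AS1, a long noncoding RNA gene named as antisense to MAPK10 (86119806 to 86219926), held 2 of the 12 MAPK10 sites, at 86123658 and 86184872. The others lay outside it on both sides. The strand of MAPK10-AS1 is not in the promoter table and was not used.

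CROT spans 54.1 kb of chromosome 7 (87345664 to 87399794) and ABCB4 spans 110.1 kb (87365896 to 87476027), and they share 33.9 kb. CROT held 5 plus-strand sites in replicate 2, at 87350505, 87359584, 87372429, 87375495 and 87391648. Their scores were 20.8, 14.0, 2.28, 9.64 and 26.2. The last 3 lay in the stretch that CROT and ABCB4 have in common, so they count for both genes and cannot be given to one of them by position. ABCB4 held 5 more, at 87412914, 87430912, 87439943, 87445955 and 87447965. These scored 23.5, 22.4, 4.69, 3.26 and 7.89, and the 3 nearest to the start of ABCB4 were the lowest of them.

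Replicate 1 had 1 site in these genes, at 87375496 on the plus strand with a score of 7.99. It lies 1 base from the replicate 2 site at 87375495 and was therefore not counted as shared under an overlap of at least 1 base. Neighbouring ABCB4 sites lay 2.01 to 21.3 kb apart, with a median of 9.03 kb, and CROT sites 3.07 to 16.2 kb apart. The run started 53.9 kb before CROT at 87291732 (scores 18.05 and 26.7 in replicates 1 and 2) and ended 26.1 kb beyond ABCB4 at 87502138 (80.2 and 143.2). Both end sites lie in no annotated gene and were the same base in both libraries, while TP53TG1, a long noncoding RNA gene on the minus strand between the first site and CROT, held none. ABCB1, a drug efflux transporter gene on the minus strand whose annotated end lies 0.879 kb after the last site, held no region of either library.

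Replicate 1 was not used to choose the genes. It held 2 sites in PLCB1 and MAPK10 and 1 in each of the other 4 genes, with the CROT and ABCB4 site being the same one. The lengths of the genes gave 1.16 for PLCB1, 0.634 for PLCB4, 0.812 for ARHGAP24, 0.898 for MAPK10, 0.0833 for CROT and 0.169 for ABCB4. All 6 were above their length, but a single site is enough for that where the length gives less than 1. Little can therefore be read from it. In the exact Poisson test (one-sided, Benjamini-Hochberg adjusted across the 59716 annotated genes) 0 of 6 passed, with an adjusted p of 1.0 for each. Also 0 of 6 had an unadjusted p under 0.05, the lowest being 0.0799 for CROT, where 620 of the 59716 genes had one. Over all genes, 0.0251% were called in replicate 1 (15 genes), so a count of 0 among 6 genes is near the background.

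In replicate 2, whose counts chose the genes, the lengths gave 1.70 for PLCB1, 0.930 for PLCB4, 1.19 for ARHGAP24, 1.32 for MAPK10, 0.122 for CROT and 0.249 for ABCB4. PLCB1, MAPK10, CROT and ABCB4 were called and PLCB4 and ARHGAP24 were not, where 0.0368% of all genes were called (22 genes). Nothing is read from this count, since it restates the choice. With regions within 100 bases counted once, 5 genes were called in replicate 2, namely these 4 members and RNA18SP, and 0 in replicate 1.

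**Figure D3:**
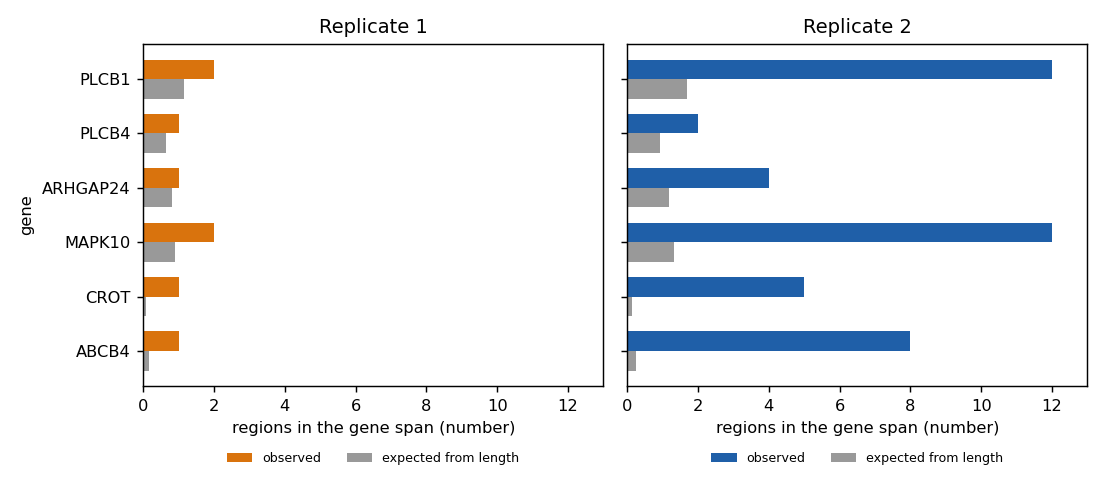
Number of regions in the span of each of the 6 genes (coloured bars) beside the number its length gives (grey bars), for replicate 1 on the left and replicate 2 on the right, both axes from 0 to 13. In replicate 1 no gene holds more than 2 regions, and in replicate 2 PLCB1 and MAPK10 hold 12 each.

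Recurrence of the member sites differed between the libraries. Of the 7 replicate 1 sites, 5 were found in replicate 2 (71.4%, against 58.8% of all replicate 1 regions). Of the 40 replicate 2 sites, 5 were found in replicate 1 (12.5%, against 41.3% of all replicate 2 regions). The choice by replicate 2 counts favours sites seen in that library, which can raise the first share and lower the second. Both shares are therefore a description. Allowing a distance of 1 base added the CROT and ABCB4 site and gave 6 in each direction. The 5 shared sites were 8710541 and 8744988 in PLCB1, 85902628 in ARHGAP24, and 86103000 and 86302643 in MAPK10, and 4 of them lay on the strand of a run.

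By score, the replicate 2 member sites, whose share is lowered by the choice on that library, are given in 4 classes set at its quartiles. In the lowest class 1 of 10 member sites was shared, against 25.8% of all regions there, and in the second 0 of 15, against 22.3%. In the third 1 of 10 was shared, against 42.9%, and in the highest 3 of 5, against 74.3%. In replicate 1, with classes at its own quartiles, 1 of 2, 1 of 1, 1 of 2 and 2 of 2 member sites were shared from the lowest class to the highest, against 24.3%, 42.6%, 72.2% and 95.5% of all regions. The choice on replicate 2 can raise these replicate 1 shares. The scores of the shared sites in PLCB1, ARHGAP24 and MAPK10 were higher in replicate 2 than in replicate 1 at 4 of 5 sites, with 8710541 at the ceiling in both. Shared run sites outside the genes were also higher in replicate 2. The share over all shared regions is not given here, so no trait of the members is read from this. How the score depends on depth was not tested.

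In replicate 2 most member sites scored below the library median. The median over the 40 sites was 17.5, with a range of 0.371 to 708.396, and 25 were below the library median of 21.3. In replicate 1 it was the other way, with a median of 26.2 over 7 sites against 21.4 for the library, and 3 of the 7 below it. Over the 43 sites of the 3 runs, sites outside the genes included, the median was 17.0. Of these 43, 12 were in the lowest of the 4 score classes of the library and 5 in the highest. The highest site scored 708.396 in the PLCB1 run, where the second scored 153.0 and the median of all but the highest was 15.7. In the MAPK10 run the highest was also 708.396, the second 305.3 and the median of all but the highest 18.05. In the ABCB4 run these were 143.2, 26.7 and 14.0.

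Many run sites carried score values that occur again and again in the library. In the runs 29 of 43 sites had a value held by at least 10 regions of replicate 2, a property of 62.2% of all regions in that library. The value 15.2925 occurred at 3 run sites and at 324 regions of the library, and 12.5218 at 2 run sites and 502 regions. The value 23.5244 occurred at 3 run sites, 1 in each run, and at 134 regions. Repeated values were thus a feature of the library and not only of the runs, and what gives a region such a value is not stated in the sources used here.

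The threshold that defined the runs left a gap. The PLCB1 run held 17 minus-strand sites over 426.0 kb with 0 on the plus strand, and the MAPK10 run 14 plus-strand sites over 370.8 kb with 1 on the minus strand. The ABCB4 run, just inside the threshold, held 12 plus-strand sites over 210.4 kb with 0 on the minus strand. Just outside it, the densest other windows held 7. The runs had 3.99, 3.78 and 5.70 same-strand sites per 100 kb, against 0.110, 0.1002 and 0.102 over the rest of chromosomes 20, 4 and 7. The runs were chosen by same-strand counts in this library, so these densities restate the choice and nothing is read from them. The nearest same-strand region outside a run was 877 kb away or more in every case.

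The windows most like the runs were the 5 densest others of replicate 2. Of these, 3 lie on chromosome 6 among transfer RNA genes, with 7, 7 and 6 same-strand regions, of which 4, 4 and 3 were in transfer RNA genes, and with 3, 5 and 5 regions on the other strand. Among protein-coding genes there, SCAND3 held 2 and PRSS16 and ZKSCAN3 1 each. A window on chromosome 2 had 6 minus-strand regions, 4 of them in HDAC4, a histone deacetylase gene, and 4 on the other strand. The window on chromosome 7 around CPVL, a carboxypeptidase-like gene, was the only one of the 5 without a region on the other strand, as in the PLCB1 and ABCB4 runs. All 6 of its replicate 2 regions were found in replicate 1, where the same interval held 7, and their median score was 122.8. In the chromosome 6 windows 1 of 7, 0 of 7 and 2 of 6 regions were shared, and in the chromosome 2 window 1 of 6. In the 3 runs 3 of 17, 2 of 14 and 2 of 12 sites were shared, and apart from the CPVL window these values were low in the runs and the other windows alike. No difference between windows was tested.

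Genes with many sites were usually hit on both strands. In replicate 2, 30 genes held at least 5 regions, and 4 of them had all on one strand. These 4 were PLCB1, MAPK10, CROT and ABCB4, for which a common strand was part of the choice. RBFOX1, a splicing regulator gene with as many regions as PLCB1, had 5 on the plus strand and 7 on the minus strand, and MACROD2 on chromosome 20 had 4 and 6.

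Relatives of the members held between 0 and 10 regions per family in replicate 2. Of 11 other phospholipase C genes, PLCH1 held 1 shared region and PLCE1 held 1 in replicate 2, against 2.70 that the lengths of the 11 gave in that library. Of 19 genes of the JNK pathway, 6 held 1 region each in replicate 2 (MAPK8, MAP3K5, MAP3K13, ATF2, DUSP1 and DUSP16), where their lengths gave 2.97, and 3 of these were also hit in replicate 1. MAPK8, the ubiquitous relative of MAPK10, had the same site in both libraries. Of 14 relatives and partners of ARHGAP24, 5 were hit in replicate 2, with 10 regions against 6.82 from length. ARHGAP15 held 6 of these and 5 in replicate 1, with 4 shared.

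None of 14 carnitine acyltransferase and peroxisomal oxidation genes and none of 10 ABCB transporter genes held a region in either library, where their lengths gave 1.69 and 1.64 in replicate 2. No gene of the 5 families was called by the exact Poisson test in either library. At an unadjusted p under 0.05 in replicate 2 there was 1 in the JNK pathway (DUSP1, 1 region against 0.0070) and 1 among the relatives and partners of ARHGAP24 (ARHGAP15, 6 regions against 1.44). In replicate 1 there was 1 in the JNK pathway (MAP3K13) and 2 among the relatives and partners of ARHGAP24 (ARHGAP15 and ARHGAP22), and 0 in the other families in either library. Of the 59716 genes tested, 620 (replicate 1) and 911 (replicate 2) lay under that threshold. Over all protein-coding genes, 8.07% held a region in replicate 1 and 11.1% in replicate 2.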

How the data were processed

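Each library was deposited as regions with a strand and a score. Per the file columns, the authors' score adds up the scores of a region's sites, and the largest difference from that sum was 0.0002 in replicate 1 and 0.002 in replicate 2. The submitters' processing notes list hg38, STAR 2.5.2, Bowtie2 2.3.5, UMI-tools, SAMtools and deepTools and assign them no step. Neither the site caller, its threshold, nor the treatment of reads that align to several places is stated there. Positions were made 1-based. Gene spans came from RefSeq on GRCh38.p14, and gene strands from the promoter table for 3 of 6 genes. Exons were not used here, so the planned split into exons and introns was not made. Sites were shared if they had at least 1 base and the strand in common. For each gene, regions were set against the number its length gives within the 1677.7 Mb that genes cover (one-sided exact Poisson test, Benjamini-Hochberg adjusted over all genes, threshold 0.05). The test treats regions as independent. The run search and the Poisson test were tried on simulated regions placed uniformly at random, with planted same-strand groups. Those groups met the run rule by construction. The simulated background had neither clustering nor scores, so it does not bear on the assumed independence. Members and lists were chosen with earlier results of these data known. Named genes are the members, other genes within the runs, genes under the 5 densest other windows outside chromosome Y (transfer RNA and other noncoding genes there by number only), and hit members of 5 families. RBFOX1, MACROD2 and RNA18SP, and ABCB1 for its distance to a run, were named after values were seen. Python 3.11.15, pandas 2.3.3 and SciPy 1.17.1 were used.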

Additional observations from a re-analysis of the deposited data

How the results depend on the processing

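Leaving out each library in turn gave between 7 and 40 distinct sites in the 6 genes (42 with both) and between 25% and 33.3% of sites on the gene's strand (36.4% with both), and the low ends of both ranges are without replicate 2. With only regions at or above the library median score, 16 distinct sites were left, 25% of sites were on the gene's strand, 3 of 4 replicate 1 sites were shared in place of 5 of 7, and 0 runs reached 10 sites, the runs holding 7, 5 and 5. The strands from general knowledge, added after seeing the data, gave 21.7%. Sought in replicate 1, also an addition, 0 runs were found. In replicate 2, 1 of the members (CROT) was called when regions were limited to the gene's strand over the 27305 genes of the promoter table, where PLCB1, PLCB4 and ABCB4 have no strand and were not tested, and 0 at or above the median score, in place of 4. Over all genes, the calls in replicates 1 and 2 numbered 1 and 1 on the gene's strand, 10 and 11 at or above the median score, and 0 and 5 with close regions merged, in place of 15 and 22. Gene spans extended by 10 kb gave 43 distinct sites, and a window of 250 kb or a minimum of 8 gave 3 runs in replicate 2. With 250 kb, however, 2 of the runs were shorter. The PLCB1 run held 16 sites and ended at 8942287, without its PLCB4 site. The MAPK10 run held 12 and ended at 86236239, without its highest site at 86302643. The place of that site near the downstream end, and of PLCB4 in a run, thus depends on the window. At the minimum of 8 replicate 1 had 1 run, of 9 plus-strand regions on chromosome 7 (28812417 to 29361098). That run covers the window around CPVL and is not the ABCB4 run. Merging close sites or capping scores left the median spacing at 15.1 kb and the median score at 17.0. In replicate 1, 0 members were called on the gene's strand, at or above the median score, or with close regions merged. The intron alternatives were not run. No paired analysis was possible because there is 1 group. Depth was not given, so what it limits is unknown.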
